A study of Mus musculus with 8 samples.

Results

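The aryl hydrocarbon receptor (AHR) and NRF2 genes described here are 10 named genes, all of which were found by symbol among the 49671 genes of the deposited count table. They are the receptor gene Ahr, its repressor Ahrr, the AHR targets Cyp1a1, Cyp1b1 and Tiparp, the shared target Nqo1, and the NRF2 targets Gclc, Gclm, Txnrd1 and Hmox1. All 10 passed the filter on low counts that left 19099 genes for testing. RNA came from whole shaved back skin of mice 8 weeks old, with 4 libraries labelled Flg ko/ko and 4 labelled Flg wt/wt, and no other allele or agent is named for either group. The labels name no strain, sex, litter or allele design and do not say that each library came from its own mouse, so p-values measure the spread between these libraries. The series asks how loss of filaggrin, a protein of the outer epidermis encoded by Flg, changes transcription across whole skin.

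AHR is a transcription factor that waits in the cytoplasm with chaperones, binds planar ligands such as tryptophan photoproducts, microbial indoles and dioxins, and then pairs with ARNT in the nucleus to switch on genes of foreign compound metabolism. Its own targets Ahrr and Tiparp dampen the response, and in human keratinocytes AHR agonists are known to raise filaggrin expression. NRF2, encoded by Nfe2l2, is held down by KEAP1 until oxidants or electrophiles release it, after which it raises enzymes that make glutathione, reduce thioredoxin and quinones and break down heme. Nqo1 is a classic target of both factors.

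Both factors bind short DNA words, and 4 upstream sequences are shown because they belong to the genes the results turn on. AHR with ARNT recognises a core of GCGTG, and NRF2 with a small MAF protein an element with the core TGACNNNGC. Each line gives the 250 bases before a RefSeq transcript start (GRCm38.p6), 5′ to 3′ on the strand of the gene, with matches to either core on either strand in capitals. The Cyp1b1 window is chr17:79715062-79715311 on the minus strand, the Cyp1a1 window chr9:57697363-57697612 on the plus strand, the Ahrr window chr13:74292332-74292581 on the minus strand and the Txnrd1 window chr10:82858956-82859205 on the plus strand.
Cyp1b1: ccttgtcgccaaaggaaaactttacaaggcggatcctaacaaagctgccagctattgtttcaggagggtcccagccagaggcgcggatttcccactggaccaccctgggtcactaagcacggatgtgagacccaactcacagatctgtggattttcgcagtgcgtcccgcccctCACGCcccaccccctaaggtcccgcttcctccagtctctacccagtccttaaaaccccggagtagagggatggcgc
Cyp1a1: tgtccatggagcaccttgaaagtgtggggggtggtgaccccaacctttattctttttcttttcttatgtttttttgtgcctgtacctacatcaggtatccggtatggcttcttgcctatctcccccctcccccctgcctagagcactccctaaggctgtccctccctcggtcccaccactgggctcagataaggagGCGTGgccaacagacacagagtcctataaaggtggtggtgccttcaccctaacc
Ahrr: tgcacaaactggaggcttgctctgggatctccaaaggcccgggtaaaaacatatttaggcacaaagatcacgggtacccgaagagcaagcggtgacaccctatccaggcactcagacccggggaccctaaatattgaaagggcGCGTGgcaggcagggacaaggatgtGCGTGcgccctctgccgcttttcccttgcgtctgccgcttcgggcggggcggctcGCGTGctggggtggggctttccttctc
Txnrd1: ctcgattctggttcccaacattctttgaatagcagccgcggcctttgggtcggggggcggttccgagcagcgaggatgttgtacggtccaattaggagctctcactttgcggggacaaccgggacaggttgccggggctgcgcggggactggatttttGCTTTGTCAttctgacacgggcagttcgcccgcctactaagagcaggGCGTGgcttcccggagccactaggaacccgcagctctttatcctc

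The Cyp1b1 window held 1 GCGTG core, on the opposite strand and read as CACGC, 76 to 72 bases before the start. The Cyp1a1 window held 1 at 54 to 50 bases, and the Ahrr window held 3, beginning 107, 82 and 27 bases before the start. The Txnrd1 window held a GCGTG core 45 to 41 bases and a TGACNNNGC core, on the opposite strand as GCTTTGTCA, 92 to 84 bases before the start. Sequences were found for 7 of the 10 genes, with 3 starts for Txnrd1 and 9 starts in all, and Ahr, Gclc and Hmox1 were not among them. GCGTG was present for 6 of these 7 genes and TGACNNNGC for 2, Gclm and Txnrd1. By window, 8 of the 9 held GCGTG and 2 of the 9 held TGACNNNGC. Among all 32851 windows of the same length, 28.2% held GCGTG and 10.2% held TGACNNNGC. These shares were not matched for GC content, which in the 9 windows ran from 47.2% (Txnrd1) to 78.4% (Gclm). No match of the 2 motifs overlapped in these windows, and a match describes letters only. The Txnrd1 start shown is also the first base of that gene in the count table, whereas the table's Cyp1a1 begins upstream of the window shown, at position 57687928.

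Library totals lay between 18483242 and 38545957 counts, and the 10 genes had between 166 counts (Ahrr) and 6208 counts (Ahr) in a library. Flg itself had 24.5 ± 1.97 CPM in ko and 59.0 ± 9.77 CPM in wt libraries (SD, n = 4 each), with no overlap and an edgeR adjusted p of 0.00326, so the targeted gene followed the labels while its reads in ko remained at 41.6% of wt. CPM are counts scaled to library size with TMM factors, which adjust for library composition. Log2 fold changes are ko over wt with standard errors (SE). Calls rest on edgeR's quasi-likelihood test, with adjustment over all 19099 genes and a threshold of 0.05. The table's markers of whole skin were all detected, from keratinocytes and fibroblasts to fat, muscle and immune cells, and in such tissue fewer cells of a type and less RNA per cell cannot be told apart. Of 17 white adipocyte markers edgeR called 0 and 10 had an unadjusted p under 0.05, with a median log2 fold change of 0.75. Their summed level, scaled to library totals, was between 6788 and 9028 CPM in ko and between 5000 and 8835 CPM in wt libraries, where 8835 CPM belonged to wt replicate 3 and the next highest was 5814 CPM in wt replicate 4.

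Of the 10 genes, 1 was called, Cyp1b1, which fell in ko skin. Over all tested genes 1.41% were called, 0.712% as higher and 0.702% as lower in ko. Cyp1b1 and Txnrd1 were the 2 members whose groups did not overlap, against 11.5% of all tested genes. Txnrd1 was on the higher side, as 5.57% of all tested genes were, and Cyp1b1 on the lower side, as 5.95% were. At an unadjusted p under 0.05 stood 5 members, Cyp1b1, Tiparp, Nqo1, Txnrd1 and Hmox1, where 19.5% of all tested genes did. The median log2 fold change of the 10 genes was 0.07, and that of all tested genes was -0.02. Among Nqo1, Gclc, Gclm, Txnrd1 and Hmox1 the median was 0.36, with 4 of 5 above 0, and among the other 5 it was -0.02, with 2 of 5 above 0. Over all tested genes 46.7% were above 0. Nqo1, a target of both factors, was counted with the NRF2 targets only, and these medians depend on that choice.

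**Figure D1:**
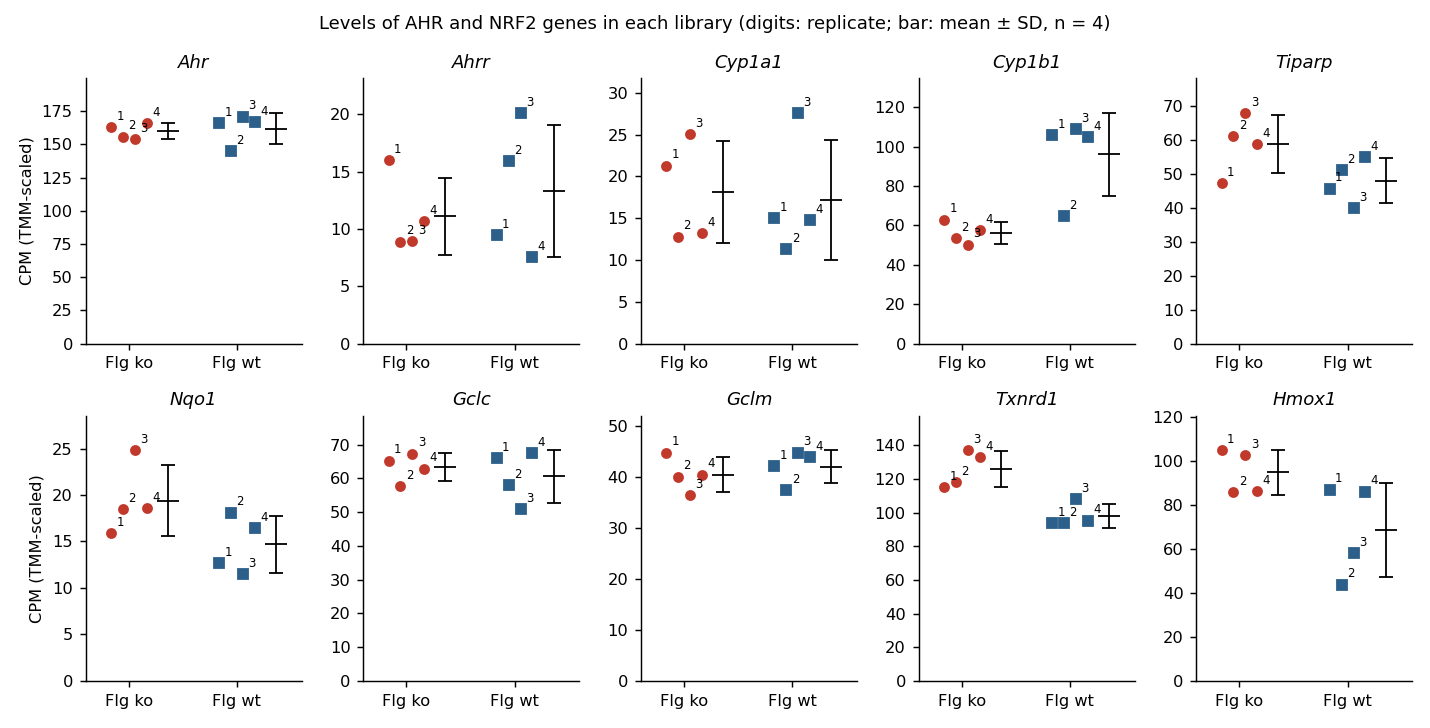
Levels of the 10 genes in each library, in CPM (vertical axes, each from 0), for ko (circles, left) and wt (squares, right), with digits for the replicate and a bar for the mean ± SD of 4 libraries. All ko circles lie below all wt squares in the Cyp1b1 panel, where wt replicate 2 is the nearest at 64.8 CPM, and all ko circles lie above all wt squares in the Txnrd1 panel.

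Cyp1b1 encodes a cytochrome of the CYP1 family that oxidises polycyclic hydrocarbons, oestrogens and retinoids and, unlike Cyp1a1, is expressed in many mesenchymal cells without added ligand. The gene (ENSMUSG00000024087) lies on chromosome 17, positions 79706953 to 79715041 of mm10, minus strand, and no exon of another gene in the table overlaps its exons. Its level was 63.0, 53.4, 50.3 and 57.4 CPM in ko replicates 1 to 4, against 106, 64.8, 109 and 105 CPM in wt replicates 1 to 4. The ko libraries lay close together, and 3 of the 4 wt libraries stood well above them while wt replicate 2 stood just above the highest ko library. The means were 56.0 ± 5.51 CPM in ko and 96.1 ± 21.0 CPM in wt (SD, n = 4 each), so that ko was at 58.3% of wt. This is a log2 fold change of -0.78 ± 0.15 (SE), with a 95% interval from -1.12 to -0.44 and an edgeR adjusted p of 0.044.

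This call was close to the threshold. It held without wt replicate 2, at -0.93 with an adjusted p of 0.00113, and without wt replicate 3, at -0.70 with an adjusted p of 0.0364. Without any one of the other 6 libraries the adjusted p was between 0.08 and 0.137, while the log2 fold change stayed between -0.84 and -0.73. When the adipocyte marker mean entered as a covariate, the log2 fold change was -1.10 and the adjusted p 0.0572. DESeq2 gave an adjusted p of 0.000673 and limma voom with quality weights one of 0.0035.

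**Figure D2:**
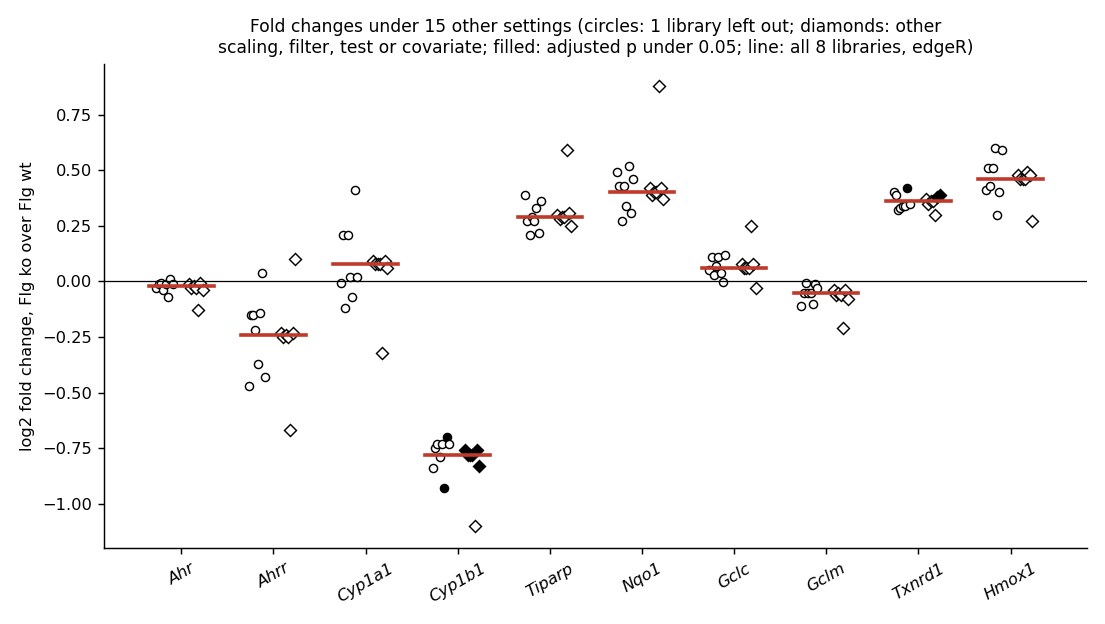
Log2 fold changes, ko over wt (vertical axis), of the 10 genes with 1 library left out (circles) and under other scaling, filters, tests or a covariate (diamonds), filled where the adjusted p was under 0.05, with a red line at the value from all 8 libraries in edgeR. Cyp1b1 stayed between -1.10 and -0.70, and Txnrd1 between 0.30 and 0.42.

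Fibroblasts and pericytes are known to express Cyp1b1. Of 10 fibroblast markers edgeR called 1, Postn as lower, and 3 had an unadjusted p under 0.05. Besides Postn these were Pdgfra at 0.60 ± 0.13 (SE, edgeR adjusted p = 0.0502) and Thy1 at 0.47 ± 0.18, both on the higher side. The list's median log2 fold change was -0.04, and its summed level was between 27140 and 37530 CPM in ko and between 26090 and 39170 CPM in wt libraries. Of 8 markers of smooth muscle and pericytes 0 were called by edgeR and 3 had an unadjusted p under 0.05. These 3 were Acta2 at 0.48, Myh11 at 0.77 and Cnn1 at 0.48, all on the higher side without overlap. The list's median was 0.14, and its summed level was between 696 and 759.9 CPM in ko and between 498.7 and 696.2 CPM in wt. The 12 T cell markers, among them genes of epidermal gamma-delta T cells, had a median of -0.75, with 11 below 0. Of these 12 markers edgeR called 1 as lower (Cd2), 8 had an unadjusted p under 0.05 and 7 did not overlap. Their summed level did not overlap, at 49.2 to 64.4 CPM in ko and 97.3 to 129.4 CPM in wt. The summed basal keratinocyte markers did not overlap either, at 6576 to 7558 CPM in ko and 8016 to 8911 CPM in wt, with 0 of 7 called by edgeR and 1 at an unadjusted p under 0.05. Over all 16 marker lists edgeR called 8 of 136 genes (5.88%), DESeq2 26 and limma voom 37. Over all tested genes edgeR called 270 of 19099 (1.41%) and limma voom 2556 of 19099. DESeq2 called 1135, but the 36256 genes to which it gave a p-value include low-count genes that edgeR's filter left out. Its share is therefore not comparable with those of edgeR and limma voom. Besides Postn, Cd2 and the macrophage gene Mrc1, the 8 called by edgeR were Calml3, Cst6, Epcam and Mlana, all lower in ko, and Mgl2, higher in ko. Calml3 and Cst6 came from the suprabasal keratinocyte list. Epcam and Mgl2 came from the Langerhans and dendritic cell list, which had a median of -0.15, 4 genes above 0 and 6 below. The Langerhans cell gene Cd207 of that list was at 0.12 ± 0.17 (SE). Mlana, at -1.83, came from the melanocyte list, which had a median of -0.25. Tyr, Pmel, Tyrp1 and Dct of that list were at 0.06, -0.10, -0.21 and -0.30. Mitf was at -0.32 without overlap (edgeR adjusted p = 0.0967). The part of these cell types in the Cyp1b1 difference was not tested.

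By the root mean square difference of centred log2 CPM over the 8 libraries, the profiles most like Cyp1b1 among 15148 named genes belonged to Mex3b (0.096), Lpar6 (0.101) and Ctsw (0.123). Mex3b, which encodes an RNA-binding protein, had 10.8 ± 0.997 CPM in ko and 18.8 ± 4.06 CPM in wt. Lpar6, which encodes a lysophosphatidic acid receptor with a role in human hair growth, had 15.6 ± 2.44 CPM in ko and 26.9 ± 4.71 CPM in wt. Ctsw encodes a cathepsin of cytotoxic lymphocytes, and it had 5.51 ± 0.163 CPM in ko and 10.2 ± 2.89 CPM in wt (SD, n = 4 each).

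Cyp1a1 encodes the cytochrome whose induction is the usual readout of AHR activation (ENSMUSG00000032315, chromosome 9, positions 57687928 to 57703824, plus strand). It had 21.3, 12.8, 25.1 and 13.2 CPM in ko replicates 1 to 4, against 15, 11.3, 27.6 and 14.8 CPM in wt replicates 1 to 4. Both groups spanned about the same range, with 1 high library in wt and 2 in ko. On the log2 scale the change was 0.08 ± 0.30 (SE, edgeR adjusted p = 0.909), and its 95% interval from -0.60 to 0.76 spans changes in either direction. The sign turned with the adipocyte covariate (-0.32) and without ko replicate 1 (-0.0074), ko replicate 3 (-0.12) or wt replicate 2 (-0.07). The relative SD over libraries was 33.6% in ko and 41.7% in wt, and 92.4% of all tested genes had a smaller spread within groups on the log2 scale. The named genes most like it were Tmem164 (0.152), Nupr1 (0.157), a stress-induced chromatin protein gene, and Slc43a2 (0.192), an amino acid transporter gene.

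Ahrr, whose product competes with AHR for ARNT and so represses AHR targets, was the lowest of the 10 genes (ENSMUSG00000021575, chromosome 13, positions 74211118 to 74292331). It had 16.0, 8.89, 8.96 and 10.7 CPM in ko replicates 1 to 4, against 9.48, 15.9, 20.1 and 7.56 CPM in wt replicates 1 to 4. The wt libraries split into a higher and a lower pair that enclosed all ko values. The log2 fold change was -0.24 ± 0.31 (SE, edgeR adjusted p = 0.7, 95% interval -0.93 to 0.45), and it was 0.04 without wt replicate 3 and 0.10 with limma voom. Cyp1a1 and Ahrr were both highest in wt replicate 3 among wt libraries, whereas their second highest wt libraries were replicates 1 and 2.

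Ahr itself differed between the groups by less than the spread of its libraries (ENSMUSG00000019256, chromosome 12, positions 35497974 to 35535038). It had 163, 156, 154 and 166 CPM in ko replicates 1 to 4, against 166, 145, 171 and 167 CPM in wt replicates 1 to 4. Its log2 fold change was -0.02 ± 0.08 (SE, edgeR adjusted p = 0.893), with a 95% interval from -0.19 to 0.15. The profiles nearest to Ahr belonged to Elf2 (0.031), Tmem115 (0.034) and Ano6 (0.035), which like Ahr varied little over the 8 libraries.

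Tiparp encodes a mono-ADP-ribosyltransferase that AHR induces and that modifies AHR in turn (ENSMUSG00000034640, chromosome 3, positions 65528410 to 65555518). Its level was 47.1, 61.1, 67.8 and 58.6 CPM in ko replicates 1 to 4, against 45.6, 51.1, 39.8 and 54.9 CPM in wt replicates 1 to 4. The highest 3 values were ko libraries, and ko replicate 1 lay within the wt range. Its log2 fold change was 0.29 ± 0.13 (SE, edgeR adjusted p = 0.242), and 0.59 with the adipocyte covariate (adjusted p = 0.151). The gene begins 27.7 Mb from Flg on the same chromosome, and 223 bases of its exons overlap an antisense transcript, 4931440P22Rik, that had at most 52 counts in a library.

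Cyp1b1 was set against each of the other AHR genes by the log2 ratio of CPM within each library. This comparison was chosen after the values were seen, with Cyp1b1 picked as the called member. Ahr differed little between the groups, so the ratio to Ahr largely repeats the Cyp1b1 difference and is no independent test of it. The log2 ratio of Cyp1b1 to Ahr averaged -1.51 ± 0.10 in ko and -0.78 ± 0.25 in wt libraries (SD, n = 4 each), with no overlap and a two-sided exact permutation p of 0.0286, which is the lowest value possible here. For the ratio to Cyp1a1 the means were 1.68 ± 0.52 in ko and 2.53 ± 0.39 in wt (exact permutation p = 0.0857). For the ratio to Tiparp they were -0.06 ± 0.36 in ko and 0.98 ± 0.48 in wt (exact permutation p = 0.0571), and for the ratio to Ahrr 2.36 ± 0.27 in ko and 2.93 ± 0.83 in wt (exact permutation p = 0.286). Adjusted over 5 such ratios, the exact permutation p was 0.143 for Ahr, Cyp1a1 and Tiparp and 0.357 for Ahrr. With 4 libraries against 4, no ratio can have an exact permutation p under 0.0286 before adjustment. The adjusted value for Ahr also depends on the p-values of the other ratios.

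**Figure D3:**
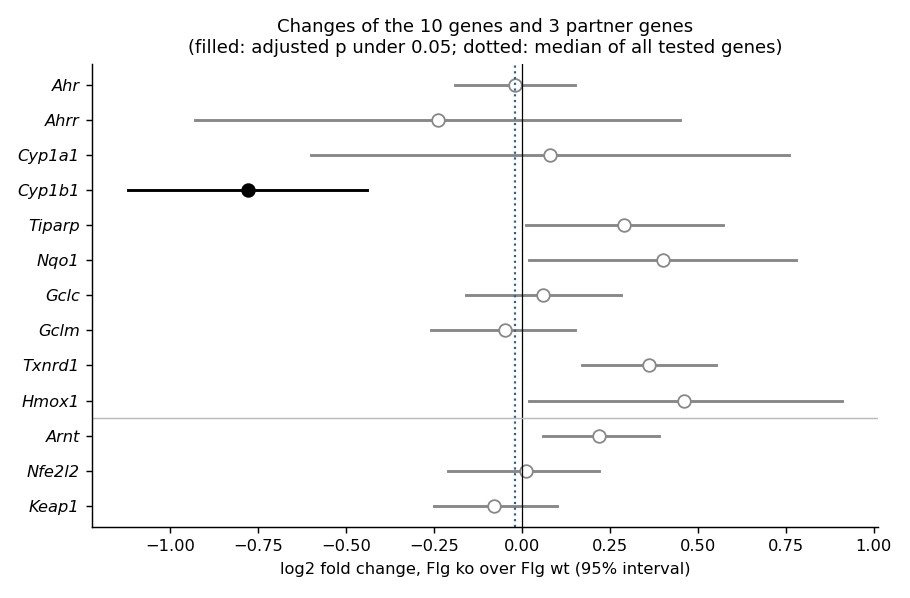
Log2 fold changes, ko over wt, with 95% intervals (horizontal axis) for the 10 genes and, below the line, for Arnt, Nfe2l2 and Keap1. The filled point is Cyp1b1 at -0.78, the called member, while the intervals of Ahr, Ahrr, Cyp1a1, Gclc and Gclm include 0.

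Txnrd1 encodes the cytosolic selenoenzyme that keeps thioredoxin reduced, and it was the NRF2 target with the clearest separation (ENSMUSG00000020250, chromosome 10, positions 82859206 to 82897724). It had 115, 118, 137 and 133 CPM in ko replicates 1 to 4, against 93.8, 93.7, 108 and 95.3 CPM in wt replicates 1 to 4. Every ko library was above every wt library, and wt replicate 3 was the nearest to them. The means were 125.5 ± 10.9 CPM in ko and 97.8 ± 7.13 CPM in wt (SD, n = 4 each), which puts ko at 128% of wt. The log2 fold change of 0.36 ± 0.09 (SE, 95% interval 0.17 to 0.55) did not pass, with an edgeR adjusted p of 0.065. It passed without wt replicate 3 (0.42, adjusted p = 0.0201), with DESeq2 (0.38, adjusted p = 0.00639) and with limma voom (0.39, adjusted p = 0.0146), and it stood at 0.30 with the adipocyte covariate (adjusted p = 0.352).

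Hmox1 encodes heme oxygenase 1, which opens the heme ring to biliverdin and which the repressor BACH1 as well as NRF2 controls (ENSMUSG00000005413, chromosome 8, positions 75093621 to 75100589). It had 105, 85.9, 103 and 86.5 CPM in ko replicates 1 to 4, against 87.1, 43.9, 58.1 and 86.2 CPM in wt replicates 1 to 4. The lower ko pair and the higher wt pair lay at the same level, and wt replicates 2 and 3 stood below all ko libraries. This gave a log2 fold change of 0.46 ± 0.20 (SE, edgeR adjusted p = 0.241), which was 0.30 without wt replicate 2 (adjusted p = 0.264) and 0.27 with limma voom (adjusted p = 0.252). Macrophages are a known source of Hmox1. Their 10 markers had a summed level between 2030 and 2898 CPM in ko and between 2166 and 2772 CPM in wt, with a median log2 fold change of 0.15. Of these markers edgeR called 1 as higher (Mrc1), and 2 had an unadjusted p under 0.05, Mrc1 and, on the lower side, Lyz2 at -0.56 ± 0.18 (SE). The 5 erythroid and blood markers had a summed level between 55.2 and 108 CPM in ko and between 66.5 and 136.1 CPM in wt, with 0 called by edgeR and 0 at an unadjusted p under 0.05. The part of either cell type in the Hmox1 values was not tested.

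Nqo1 encodes the quinone reductase that both AHR and NRF2 induce (ENSMUSG00000003849, chromosome 8, positions 107388225 to 107403206). Its level was 15.9, 18.5, 24.8 and 18.6 CPM in ko replicates 1 to 4, against 12.7, 18.1, 11.5 and 16.4 CPM in wt replicates 1 to 4. The groups overlapped through ko replicate 1, while the highest 3 values were from ko. The log2 fold change was 0.40 ± 0.17 (SE, 95% interval 0.02 to 0.78, edgeR adjusted p = 0.234). It was 0.88 with the adipocyte covariate (adjusted p = 0.0813) and 0.27 without ko replicate 3 (adjusted p = 0.441).

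Gclc and Gclm encode the catalytic and modifier subunits of glutamate-cysteine ligase, the rate-limiting enzyme of glutathione synthesis, and neither moved with genotype beyond its spread. Gclc (ENSMUSG00000032350, chromosome 9, positions 77754535 to 77794485) had between 57.8 and 67.4 CPM in ko and between 50.9 and 67.6 CPM in wt, a log2 fold change of 0.06 ± 0.10 (SE, edgeR adjusted p = 0.757). Gclm (ENSMUSG00000028124, chromosome 3, positions 122245557 to 122270732, 29.0 Mb from Flg) had between 36.4 and 44.8 CPM in ko and between 37.5 and 44.8 CPM in wt, a log2 fold change of -0.05 ± 0.09 (SE, edgeR adjusted p = 0.776). Exons of Gclm share 296 bases with 2 other genes of at most 19 counts in a library. The log2 ratio of Gclc to Gclm was 0.65 ± 0.17 in ko and 0.52 ± 0.23 in wt (SD, n = 4 each, exact permutation p = 0.514).

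As levels per kilobase of exon, the 10 genes kept much the same order in both groups except for Cyp1b1. Hmox1 was highest, at 54.3 ± 5.86 CPM per kb in ko and 39.3 ± 12.2 in wt, followed by Txnrd1 at 36.7 ± 3.19 in ko and 28.6 ± 2.09 in wt and Ahr at 25.9 ± 0.98 in ko and 26.3 ± 1.9 in wt (SD, n = 4 each). In ko the ranges of these 3 genes did not overlap, while in wt each overlapped the next. Cyp1b1 stood 7th in ko, at 10.9 ± 1.07 CPM per kb, and 4th in wt, at 18.7 ± 4.09. In ko Gclc, Tiparp, Nqo1 and Cyp1b1 formed a chain with overlapping ranges, and in wt Cyp1b1 overlapped Gclc. Cyp1a1 and Gclm lay side by side at 6.49 ± 2.18 and 6.43 ± 0.547 in ko and at 6.17 ± 2.57 and 6.68 ± 0.516 in wt, and Ahrr was lowest at 1.19 ± 0.358 in ko and 1.42 ± 0.622 in wt.

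Arnt, the nuclear partner that AHR shares with hypoxia factors, lies 2.16 Mb from Flg on chromosome 3 (positions 95434388 to 95497240). It had 117 ± 4.84 CPM in ko and 100.2 ± 7.87 CPM in wt (SD, n = 4 each), a log2 fold change of 0.22 ± 0.08 (SE, edgeR adjusted p = 0.154). The 12 genes of the AHR complex and its partners gave 0 calls by edgeR, 3 genes at an unadjusted p under 0.05 and a median log2 fold change of 0.05; Esr1, the oestrogen receptor gene, stood at 0.36 ± 0.14 and Arnt2 at -0.34 ± 0.15 (SE), neither past the test. Of 13 further AHR targets 12 were tested, 0 called by edgeR and 4 at an unadjusted p under 0.05, with a median of 0.12. The amino acid transporter gene Slc7a5 was at 22.1 ± 2.3 CPM in ko and 15.9 ± 2.49 CPM in wt without overlap (edgeR adjusted p = 0.0951), Ugt1a7c at 0.56 ± 0.23 and the vascular growth factor gene Vegfa at 0.30 ± 0.12 on the log2 scale. Cyp1a2, the third CYP1 gene and mainly a liver enzyme, was too low to test, with 6 counts over the ko libraries and 1 count over the wt libraries. Genes that turn tryptophan into AHR ligands or compete for it gave 0 calls by edgeR and 1 gene at an unadjusted p under 0.05 among 8 tested of 11, with a median of -0.07; Kyat3 stood at 0.48 ± 0.17, Haao at -0.44 ± 0.32 and Kyat1 at -0.07 ± 0.09.

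Nfe2l2 had 132.4 ± 9.08 CPM in ko and 131.8 ± 16.6 CPM in wt (SD, n = 4 each), a log2 fold change of 0.01 ± 0.10 (SE, edgeR adjusted p = 0.98). Keap1 had 56.4 ± 1.76 CPM in ko and 59.5 ± 5.32 CPM in wt, a change of -0.08 ± 0.08 (edgeR adjusted p = 0.628); 510 bases of its exons overlap an antisense gene with at most 69 counts in a library. Among all 16 NRF2 regulators and partners 0 were called by edgeR, 2 had an unadjusted p under 0.05 and the median was 0.04; Nfe2l3, Bach2 and Gsk3b stood at -0.26 ± 0.10, -0.25 ± 0.13 and 0.15 ± 0.07. The 27 tested genes of glutathione synthesis and use had a median of -0.03, 0 calls by edgeR and 8 genes at an unadjusted p under 0.05. Gpx2, a glutathione peroxidase gene of epithelia, had 1.76 ± 0.529 CPM in ko and 5.58 ± 3.75 CPM in wt, while Oplah and Slc3a2 were at 0.27 ± 0.09 and 0.23 ± 0.08 without overlap. The 14 thioredoxin and peroxiredoxin genes other than Txnrd1 had 11 members below 0, a median of -0.12, 0 calls by edgeR and 3 at an unadjusted p under 0.05, with Txnrd3 at -0.33 ± 0.10 and Glrx at -0.34 ± 0.09, both without overlap, and Prdx5 at -0.35 ± 0.13.

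NADPH, the reductant that TXNRD1, NQO1 and glutathione reductase consume, comes largely from the pentose phosphate pathway, and 2 of its genes, G6pdx and Tkt, rose. In the list of NADPH supply and quinone or carbonyl reduction 2 of 16 genes were called as higher and 0 as lower by edgeR, 7 had an unadjusted p under 0.05, and the median was 0.13. Other genes of the list, named after their values were seen, lay on both sides of 0. The pentose phosphate gene Pgd was at 0.52 ± 0.13 without overlap (edgeR adjusted p = 0.0825) and Taldo1 at 0.07 ± 0.11, while the carbonyl reductase genes Cbr1 and Cbr3 were at -0.41 ± 0.12, without overlap (edgeR adjusted p = 0.103), and at -0.30 ± 0.12. G6pdx, the entry enzyme of the pathway, had 113.5, 115, 90.0 and 114.2 CPM in ko replicates 1 to 4, against 59.2, 52.9, 74.5 and 61.0 CPM in wt replicates 1 to 4. No ko library was below any wt library, and the 2 nearest were ko replicate 3 and wt replicate 3. Its log2 fold change was 0.81 ± 0.12 (SE, edgeR adjusted p = 0.0154). Tkt, the transketolase gene of the same pathway, had 193 ± 19.3 CPM in ko and 123.7 ± 20.2 CPM in wt (SD, n = 4 each), a change of 0.64 ± 0.12 (SE, edgeR adjusted p = 0.0406). Fat cells use both enzymes for fatty acid synthesis, and the white adipocyte markers had their lowest ko and highest wt sums in the same 2 replicates 3. With the adipocyte covariate the values were 0.49 (adjusted p = 0.115) for G6pdx and 0.32 (adjusted p = 0.326) for Tkt. Adipocyte markers and genotype ran largely together in these libraries, and the part of fat cells in the G6pdx and Tkt differences was not tested. The G6pdx call ended without ko replicate 2 (adjusted p = 0.0739) or 4 (0.0683). The Tkt call ended without ko replicate 1 (0.0911), 2 (0.127) or 4 (0.131) and without wt replicate 1 (0.0858) or 4 (0.0881).

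In the list of heme and iron handling, where Hmox1 acts, 1 of 15 genes was called by edgeR, the iron exporter gene Slc40a1 as lower, 3 had an unadjusted p under 0.05 and the median was 0.08. The other 2 of these 3, named after their values were seen, lay on the higher side without overlap. Hp, which encodes the haemoglobin-binding protein haptoglobin, had 332 ± 111 CPM in ko and 65.1 ± 40.5 CPM in wt (SD, n = 4 each, edgeR adjusted p = 0.101). Alas1, which encodes the first enzyme of heme synthesis, had 87.1 ± 11.5 CPM in ko and 58.5 ± 13.0 CPM in wt (SD, n = 4 each, edgeR adjusted p = 0.0868). Slc40a1 had 44.0, 34.6, 32.8 and 34.3 CPM in ko replicates 1 to 4, against 53.8, 63.5, 88.6 and 56.7 CPM in wt replicates 1 to 4. The groups did not overlap, and wt replicate 3 was the highest. The log2 fold change was -0.85 ± 0.16 (SE, edgeR adjusted p = 0.04), and with the adipocyte covariate it was -1.19 (adjusted p = 0.037). The call ended without ko replicate 2 (adjusted p = 0.126), 3 (0.0853) or 4 (0.137) or wt replicate 4 (0.0698). Efflux transporters and other NRF2 targets gave 0 calls by edgeR and 1 gene at an unadjusted p under 0.05 among 14 tested, with a median of -0.08, where Abcc4, Ptgr1 and Sod1 stood at 0.24 ± 0.11, -0.17 ± 0.08 and -0.18 ± 0.08. Cytochromes of other families gave 0 calls by edgeR and 3 genes at an unadjusted p under 0.05 among 17, with a median of 0.10, Cyp2f2 at 1.10 ± 0.32, the retinoic acid hydroxylase gene Cyp26b1 at -0.26 ± 0.11 and the sterol demethylase gene Cyp51 at -0.41 ± 0.15. Hypoxia factor genes and targets, which share ARNT, gave 0 calls by edgeR, 3 genes at an unadjusted p under 0.05 among 15 and a median of 0.13, with Adm at 0.33 ± 0.14 and the glucose transporter gene Slc2a1 at 0.18 ± 0.08. Over all lists, 3 of 163 different genes were called (1.84%), against the 1.41% of all tested genes. DESeq2 called 10 and limma voom 20 of the list genes, where in all DESeq2 called 1135 genes and limma voom 2556 of 19099. The 36256 genes with a DESeq2 p-value include low-count genes that edgeR's filter left out. A DESeq2 share of them is therefore not comparable with the shares of edgeR and limma voom.

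**Figure D4:**
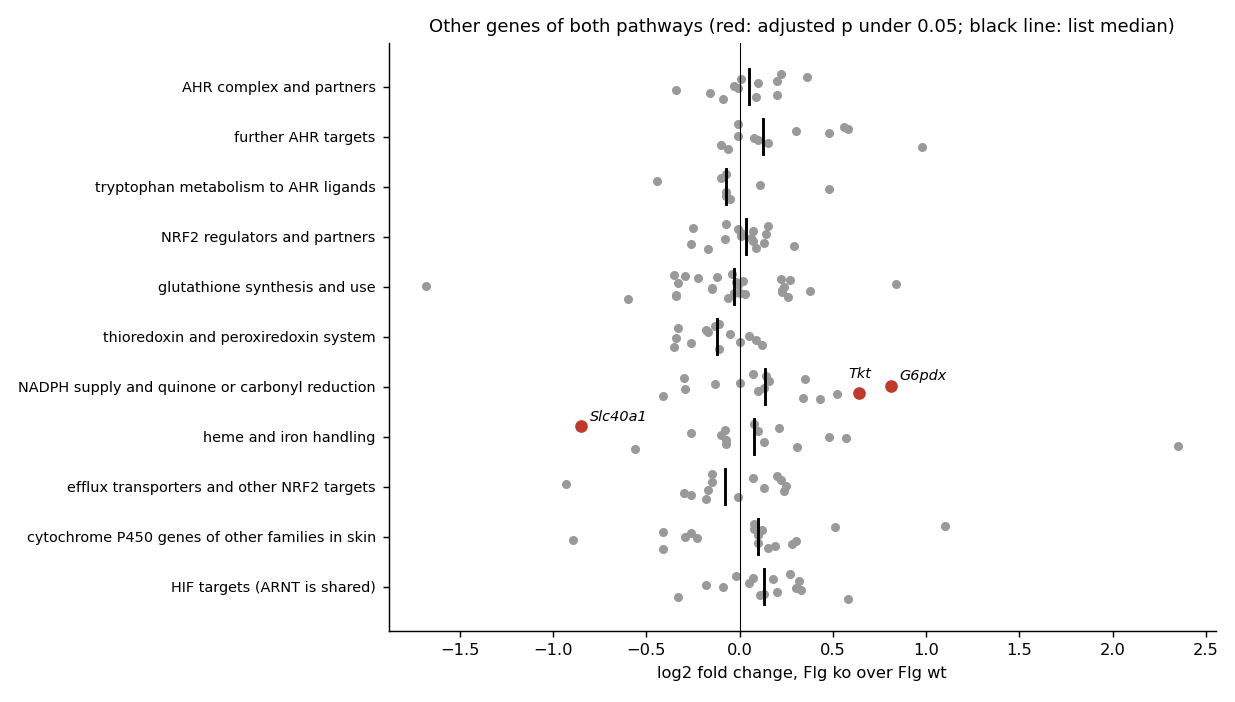
Log2 fold changes, ko over wt (horizontal axis), of the tested genes in 11 lists around both pathways, with a black line at each list's median. A gene has 1 point in each list that holds it. The called genes are G6pdx and Tkt to the right and Slc40a1 to the left, and every list median lies between -0.12 and 0.13.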

How the data were processed

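Total RNA of whole back skin was sequenced in 8 libraries. Per the submitters' processing notes, the authors aligned reads with GSNAP to mm10 and deposited raw counts per gene from featureCounts 1.6.2. The series design text names a SMART protocol, whereas the sample labels name a strand-specific kit. The strand setting is not given in the sources used here, so reads of overlapping antisense genes cannot be told apart. Spike-in rows (92, at most 1 count) were left out. Symbols came from GENCODE M21 (49326 of 49671 genes) and upstream sequences from RefSeq.

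Counts were tested with edgeR 4.0.16 in R 4.3.3 (filterByExpr, TMM, robust quasi-likelihood, Benjamini-Hochberg over 19099 genes), with genotype as the only term. Intervals are 95%. The test was checked on simulated data: edgeR recovered 32.1% of genes that were altered 1.5-fold and 69.6% of those altered 2-fold, and 3.79% of its calls were false. The simulated counts were drawn for each gene on its own, without shifts that many genes of a library share. These rates therefore need not hold for the real libraries. Alternatives used limma 3.58.1, DESeq2 1.42.0, other scaling and filters, a covariate and each library left out. Log2 CPM used a prior count of 2.

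Members, lists and tests were chosen with earlier results of these data known. Named by rule were the members, called list genes or else up to 3 with the smallest p per list, Arnt, Nfe2l2, Keap1 and Cyp1a2, and for Ahr, Cyp1a1 and Cyp1b1 the 3 most similar genes. Replicates are numbered in accession order. Replicates of a group differed by more than sampling noise in every pair (lowest chi-square over degrees of freedom 5.94). The 11 pathway and 16 marker lists held 312 entries, 1 without a gene. All 16 marker lists enter the total count of called markers.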

Additional observations from a re-analysis of the deposited data

Results flagged for a closer look

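Among 51 named genes, each of 102 groups of 4 libraries was screened with Dixon's test for 1 library standing apart from the other 3, and 9 groups (8.82%) had one, where chance gives about 1 in 20. Of the 10 genes, Cyp1b1 had one in wt replicate 2, at 64.8 CPM against 105 to 109 CPM in the other wt libraries. Lpar6, similar to Cyp1b1 by choice, had the same library low at 19.9 CPM. Txnrd1 had one in wt replicate 3, at 108 CPM against 93.7 to 95.3 CPM. The same library was high for Ugt1a7c (7.75 CPM) and for Tmem164 (234 CPM) and Nupr1 (114 CPM), both chosen as similar to Cyp1a1. In ko, replicate 3 was high for Gpx2 (2.54 CPM) and low for G6pdx (90.0 CPM against 114 to 115 CPM), and replicate 1 was high for Slc40a1 (44.0 CPM).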

How the results depend on the processing

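No paired analysis was possible because replicate numbers follow accession order. Of 150 values of the 10 genes under 15 other settings, 131 kept their direction and side of the threshold, 7 of Cyp1b1 lost the call, 3 of Txnrd1 gained it and 9 changed sign. The values that changed sign were Cyp1a1 at -0.32 with the adipocyte covariate, -0.0074 and -0.12 without ko replicates 1 and 3 and -0.07 without wt replicate 2; Ahr at 0.01, Ahrr at 0.04 and Gclc at -0.0036 without wt replicate 3; and Ahrr at 0.10 and Gclc at -0.03 with limma voom. With 1 library left out the ranges were -0.12 to 0.41 for Cyp1a1, -0.07 to 0.01 for Ahr, -0.47 to 0.04 for Ahrr, -0.0036 to 0.12 for Gclc, 0.21 to 0.39 for Tiparp, 0.27 to 0.52 for Nqo1, 0.30 to 0.60 for Hmox1 and -0.11 to -0.0068 for Gclm. Flg kept its call throughout (-1.38 to -1.20).

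Called members numbered 0 with the adipocyte covariate and 2 with DESeq2 and with limma voom, and 0 to 2 with 1 library left out. All called genes numbered 270, and 38 with the covariate, 502 with no filter, 1135 with DESeq2 (586 higher, 549 lower), 2556 with limma voom and 11 to 1324 with 1 library left out (without ko replicates 1 to 4, 77, 11, 129 and 15, and without wt replicates 1 to 4, 63, 504, 1324 and 62). With DESeq2 size factors 137 were higher and 98 lower, against 136 and 134. Called list genes numbered 3, and 1 with the covariate, 10 with DESeq2, 20 with limma voom and 0 to 18 with 1 library left out. Called marker genes numbered 8, and 5 with DESeq2 size factors, 13 with no filter, 1 with the covariate, 26 with DESeq2, 37 with limma voom and 0 to 28 with 1 library left out. The cause of these shifts was not tested. The lowest count of any of the 10 genes in a library was 166.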
